A study of Danio rerio with 18 samples.

Results

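The change in embryonic RNA between 1 and 7 hours post fertilization (hpf) was measured in wild-type zebrafish embryos that had received a locked nucleic acid against mir-34 (anti-mir-34LNA). The comparison sets the 3 anti-mir-34 arrays of 7 hpf against the 3 anti-mir-34 arrays of 1 hpf, which are 6 of the 18 arrays of the study, and covers all 15502 probe sets that are not Affymetrix controls. A locked nucleic acid (LNA) is a modified oligonucleotide that binds its complementary RNA strongly. The other arrays hold embryos of the same genotype injected with a mock LNA, and embryos of both injections at 24 hpf, again 3 arrays in each group.

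Per the labels, every embryo was wild type, was injected at the 1 to 2 cell stage and was aged at 30C, and the 7 hpf embryos were taken out of their chorions by hand before RNA extraction with Trizol. The embryos of 1 hpf are not described as dechorionated, so this handling cannot be told apart from age. Embryos were also watched for defects, and selected ones were moved to a fresh dish. The 3 arrays of a group are called biological replicates, while the sources used here do not give the number of embryos per sample or their clutches. The p-values below therefore measure the spread between samples. In the main fit that spread was pooled over all groups of the study, also those outside this comparison. Because whole embryos were lysed, fewer cells of a type and less RNA per cell cannot be told apart. No probe set on the array was named as a microRNA, so mir-34 itself and the depth of its block were not measured, and the sources used here give neither the LNA's sequence nor its dose.

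A zebrafish egg is loaded with maternal messenger RNA and is transcriptionally silent through its first cleavages. At the mid-blastula transition the zygotic genome is switched on, and maternal messages are cleared both by maternal factors and by zygotic products such as the microRNA miR-430. By the start of gastrulation the outer enveloping layer, the yolk syncytial layer and the precursors of the germ layers are set apart, each with its own transcription factors. The microRNA miR-34 is best known in mammals for repressing regulators of the cell cycle and of Notch signalling.

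Values are the deposited log2 signals. All distributions were nearly equal between arrays, with array medians between 3.67 and 3.68, so differences show shifts against the rest of the array, not in the total RNA of an embryo. Differences are 7 minus 1 hpf on the log2 scale with limma's standard error (SE), levels carry the SD over 3 arrays, and every adjusted p is limma's over 15502 probe sets, with a threshold of 0.05. The table holds no detection calls, so levels below about 3.5 were taken as near the floor. For the main probe set of a gene the difference after adding 16 to each signal is then given as well. The smallest p an exact permutation test could reach with such groups of 3 is 0.1.

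Between 1 and 7 hpf, 6109 of 15502 probe sets changed (39.4%), of which 3003 rose (19.4%) and 3106 fell (20.0%). At an unadjusted p below 0.05 there were 7357. Among 8796 genes, each represented by its brightest probe set, 1739 rose (19.8%) and 2234 fell (25.4%), and these shares are the background for every gene group below. The median difference over all genes was -0.33, or -0.10 with 16 added to the signals. The 3 arrays of one age lay wholly on one side of the other 3 in 7696 probe sets (49.6%), higher at 7 hpf in 3488 and lower in 4208. Of the risers 2646 rose by more than 2-fold and 583 by more than 16-fold, while 1604 of them started below 3.5. Of the fallers 2786 fell by more than 2-fold and 88 by more than 16-fold, and 1390 of them ended below 3.5.

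The near balance of rises and falls held on the deposited scale, after quantile normalization (2994 rose and 3119 fell) and under cyclic loess (3049 and 2824). It did not hold under every scaling. When each array was centred on its ribosomal protein probe sets, the median of all genes shifted by -1.32 and 1234 probe sets rose while 8765 fell, so that rises made up 12.3% of the calls and not 49.2%. Each direction below is relative to the deposited scale, and the sentences on groups say where this centring or another normalization turned the group's median. For groups whose median stayed positive, the counts under this centring are given as well.

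The share of probe sets that fell was higher at higher levels in embryos of 1 hpf. To sort probe sets without using the anti-mir-34 arrays, they were divided by their mean level in mock embryos of 1 hpf. Of the 5036 probe sets with a mock level under 2, 21.6% rose and 4.05% fell. Between 6 and 8 there were 2709 probe sets, of which 18.6% rose and 36.2% fell. At a level of 10 or more, 58.3% of 108 probe sets fell and 10.2% rose, with a median difference of -1.32. The share that rose varied little over the bins below a level of 10, from 17.6% to 22.0%, while the share that fell was higher in each brighter bin. By number most fallers lay lower, with 1034 between 4 and 6, 981 between 6 and 8, 269 between 8 and 10 and 63 above, and in the dimmest bins the floor limits any fall.

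**Figure D1:**
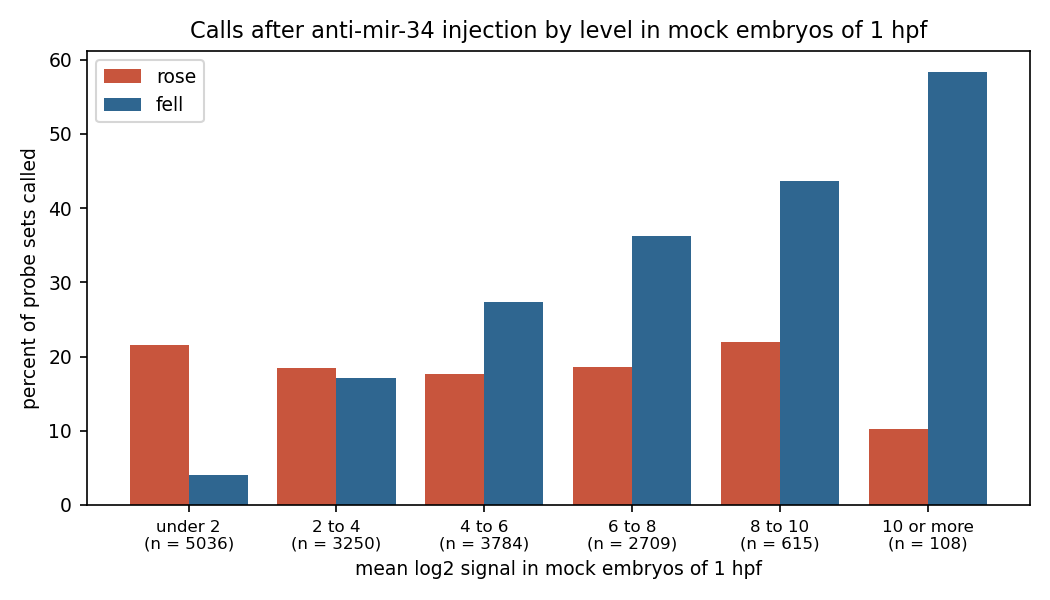
Percent of probe sets that rose (red) or fell (blue) from 1 to 7 hpf after anti-mir-34 injection, as deposited, by mean log2 signal in the mock embryos of 1 hpf, with the number of probe sets under each pair of bars. The falling share goes from 4.05% in the dimmest bin to 58.3% in the brightest, whereas the rising share stays between 17.6% and 22.0% up to a level of 10.

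One array of 7 hpf stood nearer to the arrays of 1 hpf than the others. Anti-mir-34 7 hpf replicate 2 had a mean correlation of 0.772 with the 3 arrays of 1 hpf, against 0.714 for replicate 1 and 0.689 for replicate 3. Along the first principal component, which held 65.48% of the variance of the 6 arrays, it lay at 84.01 where the others lay at 120.91 and 134.09. It was the array of 7 hpf closest to the 1 hpf mean in 2087 of the 3003 risers (69.5%) and in 1730 of the 3106 fallers (55.7%). The correlation of each array with the others of its own group was between 0.895 and 0.926. Without 7 hpf replicate 1 or 3 the number of probe sets that passed was 5079 or 4932. Without replicate 2 it was 6013, 2909 up and 3104 down. Among the 33 gene groups its removal moved 2 counts by more than 1.5 times: the RNA helicases that fell went from 5 to 3, and the Notch genes that fell from 1 to 0. A sign of RNA integrity, the GAPDH 3' minus 5' control difference, was 0.09, -0.31 and 0.09 on the arrays of 1 hpf and 0.53, 0.78 and -1.40 on those of 7 hpf, so the arrays of 7 hpf varied more, and its part in the results was not tested.

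Most oocyte transcripts fell. The group holds egg coat proteins, meiotic regulators and maternal RNA-binding proteins, and 17 of its 24 measured genes fell while 0 rose, also at an unadjusted p below 0.05 in limma, with a median of -2.42 (-1.95 with 16 added, when 21 fell). The median level of the group was 9.17, 9.17 and 8.97 on the arrays of 1 hpf and 5.93, 6.78 and 5.62 on those of 7 hpf. Its level thus differed by several units between the ages, and replicate 2 kept the most at 7 hpf.

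The kinase gene mos, whose product holds the egg in meiotic arrest, had log2 signals of 10.47, 10.72 and 10.90 at 1 hpf and 4.68, 6.16 and 4.31 at 7 hpf. The ages did not overlap, and mos fell by 5.65 ± 0.73 (SE, adjusted p = 4.29e-06). Of the genes named here it had the largest fall once 16 was added to the signals (-5.05). For btg4, known in mice as the adaptor that brings the CCR4-NOT deadenylase to maternal messages, the signals were 10.86, 10.88 and 10.67 at 1 hpf and 5.56, 7.29 and 5.03 at 7 hpf. All 3 later values lay far under the earlier ones, and btg4 fell by 4.85 ± 1.02 (adjusted p = 0.000732). The oocyte growth factor gene bmp15 went from 9.07, 9.23 and 8.83 to 3.94, 4.35 and 3.09, so that it fell by 5.25 ± 0.66 (adjusted p = 3e-06), and its other probe set fell by 3.69 ± 0.70.

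Egg coat genes followed. The signals of zp3c were 8.95, 9.49 and 9.12 at 1 hpf and 5.34, 6.74 and 4.92 at 7 hpf, and it fell by 3.52 ± 0.56 (adjusted p = 4.63e-05). For zp3b they were 9.03, 8.55 and 8.69 against 5.79, 6.63 and 6.06, and it fell by 2.6 ± 0.41 (adjusted p = 3.68e-05). In neither gene did the ages overlap. The zygote arrest gene zar1l, which codes for an RNA-binding protein of the egg, fell by 4.35 ± 0.89 (10.68 ± 0.32 to 6.33 ± 0.63, SD, n = 3; adjusted p = 0.000603). The oogenesis-related gene org fell by 4.80 ± 0.78 (adjusted p = 5.64e-05). The maternal claudin gene cldnd, of the tight junction family, stood at 11.09, 11.25 and 11.36 at 1 hpf and at 7.18, 7.92 and 6.59 at 7 hpf. It fell by 4.0 ± 1.12 (adjusted p = 0.00725), although its difference was not past the test of a change of at least 2-fold (adjusted p = 0.052).

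Other transcripts among the 15 largest falls were slbp2, whose frog counterpart codes for the oocyte form of the histone messenger binding protein (-4.55 ± 0.85, 10.27 ± 0.14 to 5.72 ± 1.19), birc5b of the survivin family (-4.30 ± 0.67), and kpna7, known in mammals as the importin alpha of the oocyte (-4.77 ± 0.59). The lipase gene lipg fell by 5.90 ± 0.49 (7.73, 9.40 and 8.88 to 2.89, 2.96 and 2.46, adjusted p = 1.51e-08; -4.21 with 16 added), and map1lc3c of the autophagy LC3 family fell by 3.72 ± 0.66. The remaining 4, named without a role here, were sinup, si:dkey-19b23.8, zgc:195245 and zgc:56231. The 15 were chosen among genes whose ages do not overlap.

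Several oocyte genes missed the threshold. Among them, chosen here after their values were seen, were the cyclin gene ccna1 and the oocyte linker histone gene h1m. The signals of ccna1 were 10.49, 10.55 and 10.99 at 1 hpf and 8.74, 9.91 and 8.74 at 7 hpf, a difference of -1.55 ± 0.90 (adjusted p = 0.184). Those of h1m were 10.77, 10.94 and 11.13 against 8.67, 10.35 and 8.43, a difference of -1.80 ± 1.01 (adjusted p = 0.168). In both, replicate 2 of 7 hpf stood above the others of its age and close to the 1 hpf level, and the ages still did not overlap. Both passed with 16 added (adjusted p = 0.00248 and 0.00419). The SE is limma's and draws on the spread in every group of the study, not only on the arrays compared here. For ccna1 it was larger than the SD at either age (0.27 at 1 hpf and 0.67 at 7 hpf). Why both genes missed the threshold was not tested. The egg coat gene zp2.6 had 7.89, 8.69 and 8.57 at 1 hpf and 8.20, 7.59 and 7.88 at 7 hpf, with overlapping ages (-0.49 ± 0.66, adjusted p = 0.589).

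Germ plasm genes mostly fell too. Germ plasm is the maternal RNA and protein aggregate that the future germ cells inherit. Of 17 genes 9 fell and 2 rose, with a median of -2.27 (-1.51 with 16 added). The germ cell RNA-binding gene dazl had signals of 7.90, 7.56 and 8.11 at 1 hpf and 3.33, 5.16 and 3.80 at 7 hpf, and it fell by 3.76 ± 0.46 (adjusted p = 2.08e-06). For dnd1, whose protein shields germ cell messages from microRNAs, they were 7.33, 8.11 and 8.09 against 3.58, 4.56 and 4.73, and it fell by 3.55 ± 0.49 (adjusted p = 1.01e-05). The ages of both genes were well apart. The named fallers of the piRNA pathway, which silences transposons in the germ line, were tdrkh by 3.43 ± 0.32, piwil2 by 3.59 ± 0.63 and asz1 by 2.58 ± 0.46 (-2.12, -2.42 and -2.31 with 16 added). The helicase gene ddx4 (vasa), a defining germ line marker, did not pass, with 7.12, 6.35 and 7.30 at 1 hpf and 6.73, 7.06 and 6.53 at 7 hpf (-0.15 ± 0.44, adjusted p = 0.814), and its ages overlapped.

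The 2 risers of the germ plasm group were RNA-binding proteins that other tissues also use. The Y-box gene ybx1, whose protein packages and represses maternal messages, rose by 2.67 ± 0.28 (8.49, 7.31 and 7.80 to 10.49, 10.50 and 10.62; adjusted p = 3.42e-07). Its other, dim probe set had a difference of 0.19 ± 0.62 and did not pass. The gene celf1 rose by 0.76 ± 0.27 (adjusted p = 0.0292), and its call, and so 1 of the group's 2 rises, ended without any of 4 single arrays (1 hpf replicate 1, adjusted p = 0.108; 1 hpf replicate 2, 0.0593; 7 hpf replicate 1, 0.0511; 7 hpf replicate 3, 0.145). Another probe set of celf1 fell by 1.98 ± 0.45.

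**Figure D2:**
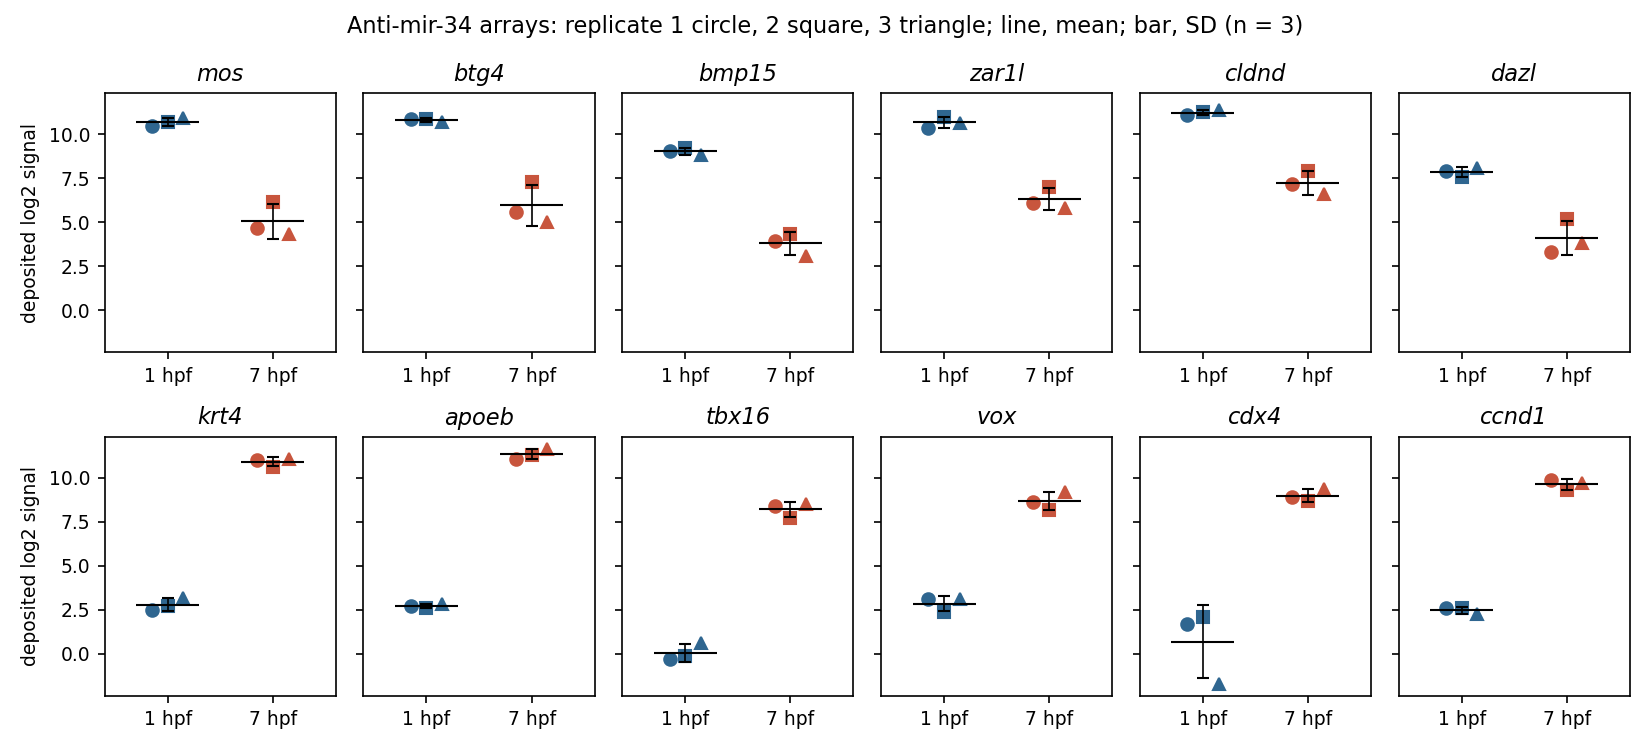
Deposited log2 signal on each of the 6 anti-mir-34 arrays for 6 genes that fell (top: mos, btg4, bmp15, zar1l, cldnd, dazl) and 6 that rose (bottom: krt4, apoeb, tbx16, vox, cdx4, ccnd1). Circles, squares and triangles are replicates 1, 2 and 3, the line is the mean and the bar the SD (n = 3). The ages do not overlap in any panel, which the choice of largest changes required for mos, btg4, bmp15, zar1l, cldnd, krt4, apoeb and ccnd1. Replicate 2 of 7 hpf is the highest of its age in the falling genes.

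Genes of the machinery that acts on maternal messages were called about as often as all genes. Of 43 genes of messenger decay and microRNA processing, 10 rose and 10 fell, beside 19.8% and 25.4% over all genes. Their median of -0.01 turned to 0.11 under cyclic loess. The decapping enzyme gene dcp2 rose by 1.88 ± 0.30 (4.69, 5.07 and 5.36 to 7.15, 6.50 and 7.13), whereas its cofactor gene dcp1a fell by 1.80 ± 0.38. The deadenylase subunit gene cnot9 rose by 1.83 ± 0.23, and ythdf2, the reader of methylated adenosine that takes part in maternal clearance in zebrafish, rose by 1.5 ± 0.26. Among nuclease genes of microRNA processing, drosha fell by 2.93 ± 0.39 (6.56, 6.2 and 6.33 to 3.17, 3.5 and 3.62; adjusted p = 6.07e-06), and its other probe set fell by 2.90 ± 0.45. With 16 added these differences were -1.88 and -1.55. The cytoplasmic counterpart dicer1, chosen after its values were seen, had a difference of -0.07 ± 0.37 (adjusted p = 0.892). Genes for proteins that bind AU-rich elements split, since zfp36l2 fell by 3.01 ± 0.38 (-1.93 with 16 added) and zfp36l1b rose by 4.45 ± 0.72 (1.35 with 16 added).

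Among 25 factors of genome activation, 10 rose and 6 fell, with a median of -0.11. The maternal pioneers pou5f3 and nanog, again chosen after their values were seen, did not pass: pou5f3 had signals of 10.15, 9.62 and 10.09 at 1 hpf and 9.62, 10.14 and 9.25 at 7 hpf (-0.28 ± 0.32, adjusted p = 0.508), and nanog 10.18, 9.75 and 10.53 against 9.17, 10.30 and 8.46 (-0.84 ± 0.62, adjusted p = 0.299). The ages overlapped in both. The third maternal pioneer, sox19b, fell by 1.22 ± 0.34 (8.41, 7.64 and 8.40 to 6.72, 7.48 and 6.60; adjusted p = 0.00708). Its other probe set had a difference of -0.88 ± 0.62 and did not pass (adjusted p = 0.28).

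Zygotic SoxB1 genes, which hold cells in a progenitor state, rose. The signals of sox19a went from 2.21, 0.69 and 2.03 to 8.40, 7.84 and 8.59, a rise of 6.63 ± 0.54 (4.07 with 16 added; adjusted p = 1.09e-08). For sox3 and sox2 the rises were 6.62 ± 0.77 and 5.77 ± 0.40 (3.68 and 2.28 with 16 added), although 1 of the 3 probe sets of each gene had a difference near 0 (0.31 ± 0.72 and -0.18 ± 0.59). The forkhead gene foxd5 rose by 7.97 ± 0.75 (3.76 with 16 added). Among the fallers was tbpl2, the oocyte form of the TATA-binding protein in vertebrates, which went from 6.59, 6.89 and 6.73 to 1.44, 3.46 and 1.55 and fell by 4.58 ± 0.69 (-2.53 with 16 added; adjusted p = 2.45e-05). The basal factor gene taf1 fell by 2.55 ± 0.68 (-0.63 with 16 added). In the Myc family myca and mycb fell by 2.6 ± 0.47 and 1.79 ± 0.34 (-0.55 and -1.14 with 16 added) and mych rose by 3.12 ± 0.36 (2.25).

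Nodal ligands induce mesoderm and endoderm through activin receptors and Smad proteins, and Lefty proteins hold them back. In this group 3 of 13 genes rose and 3 fell, near the shares over all genes, with a median of -0.53. Of the ligands, gdf3, the maternal partner of the Nodals, fell by 2.38 ± 0.77 (10.10, 9.76 and 10.09 to 7.45, 8.84 and 6.51; adjusted p = 0.0178), a call that ended without 7 hpf replicate 1 (0.0524) or 3 (0.103). The ligand gene ndr2 (cyclops) rose by 2.87 ± 0.74, though by 0.71 with 16 added. The inhibitor lft2 had signals of 0.67, 0.77 and 2.33 at 1 hpf and 6.28, 5.42 and 6.27 at 7 hpf, a rise of 4.73 ± 0.63 (2.1 with 16 added), and lft1 rose by 4.11 ± 0.89 (1.72). The transducers smad3a and smad3b fell by 2.65 ± 0.84 and 1.53 ± 0.41 (-0.54 and -0.58 with 16 added), and smad3a lost its call without 7 hpf replicate 2 (0.053) or 3 (0.0772). Without 7 hpf replicate 3 the number of the group's genes that fell went from 3 to 1.

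Mesendoderm genes, many of them known targets of this signal, rose in 29 of 37 cases and fell in 1, with a median of 3.59 (1.14 with 16 added, when 28 rose and 2 fell). Centred on ribosomal protein probe sets, 22 rose and 6 fell, with a median of 2.27. The list's median level was 2.12, 2.24 and 1.73 at 1 hpf and 5.6, 4.98 and 5.43 at 7 hpf, clear of each other. The T-box gene tbx16 (spadetail), which mesoderm cells need to migrate, went from -0.32, -0.15 and 0.63 to 8.39, 7.73 and 8.51, a rise of 8.15 ± 0.58 (4.19 with 16 added; adjusted p = 1.58e-09). The presomitic mesoderm gene msgn1 went from -0.17, 1.22 and 1.6 to 8.61, 8.33 and 8.95 (7.75 ± 0.60 higher, 4.51 with 16 added). The axial gene foxa2 of notochord and endoderm rose by 6.13 ± 0.50 (2.89 with 16 added), and the anterior gene otx2b by 4.14 ± 0.42 (2.44). Axial genes chosen after their values were seen were the notochord factor tbxta, higher by 5.73 ± 0.65 (2.92 with 16 added), and the organizer gene gsc, higher by 4.66 ± 0.70 (2.08). The forkhead gene foxa fell instead, by 1.38 ± 0.34 (5.85, 6.03 and 6.31 to 4.78, 4.67 and 4.59).

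Bone morphogenetic proteins (BMPs) pattern the embryo from ventral to dorsal, against antagonists from the organizer. Of 46 dorsoventral genes 28 rose and 4 fell, with a median of 2.16 (1.04 with 16 added), while 23 rose and 9 fell when centred on ribosomal protein probe sets, with a median of 0.84. The ventral homeobox repressor vox had signals of 3.09, 2.35 and 3.11 at 1 hpf and 8.61, 8.17 and 9.20 at 7 hpf, a rise of 5.81 ± 0.51 (4.17 with 16 added; adjusted p = 3.4e-08). The direct BMP target id1 rose by 4.59 ± 0.36 (3.73 with 16 added). Ventral and ectodermal factors rose as well: gata2a by 6.55 ± 0.57, klf2b by 6.44 ± 0.62 and tfap2a by 3.78 ± 0.41 (3.51, 3.23 and 2.96 with 16 added). Both arms of the system were among the risers, since the ligand gene bmp2b (4.12 ± 0.46 higher, 2.49 with 16 added) and its antagonist chrd (4.12 ± 0.49 higher, 2.59 with 16 added), chosen after their values were seen, both rose. Receptor genes were among the 4 that fell, since bmpr1ba fell by 2.36 ± 0.31 (5.52, 5.33 and 5.35 to 2.59, 3.39 and 3.16; -1.26 with 16 added) and bmpr1ab fell by 1.24 ± 0.41. The call of bmpr1ab ended without 1 hpf replicate 2 (0.053) or 3 (0.0509) or 7 hpf replicate 2 (0.129). The others that fell were id2a, a relative of id1, by 1.31 ± 0.27 and twsg1a by 1.78 ± 0.41 (-0.61 with 16 added).

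In the Wnt and Fgf pathways 28 of 50 genes rose and 4 fell, with a median of 1.69 (0.90 with 16 added), while 17 rose and 13 fell when centred on ribosomal protein probe sets, with a median of 0.37. Of the receptors, fgfr4 went from 2.67, 2.79 and 2.18 to 8.40, 8.42 and 8.94 (6.04 ± 0.34 higher, 4.19 with 16 added; adjusted p = 6.22e-11), and the Frizzled genes fzd7a and fzd8a rose by 6.12 ± 0.40 and 5.21 ± 0.43 (4.66 and 2.87). The caudal gene cdx4, a posterior target of both pathways, went from 1.68, 2.07 and -1.72 to 8.89, 8.67 and 9.38, a rise of 8.30 ± 0.70 (4.82 with 16 added). The 4 that fell were fgf4, fgf18a, fgfr1a and etv5a, with adjusted p from 0.0357 to 0.0438 and differences of -0.26, -0.40, -0.56 and -0.61 with 16 added. The other probe set of etv5a had a difference of -0.22 ± 0.41 and did not pass. None of the 4 kept its call without 1 hpf replicate 1, 1 hpf replicate 3 or 7 hpf replicate 1, when the number that fell was 0, and 1 was left without 7 hpf replicate 3.

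Of 46 genes of the neural plate and its borders, 24 rose and 7 fell, with a median of 1.98 (0.51 with 16 added), while 20 rose and 13 fell under that centring, with a median of 0.66. The neural cadherin gene cdh2 had signals of 3.33, 3.18 and 3.46 at 1 hpf and 8.39, 8.18 and 8.64 at 7 hpf, a rise of 5.08 ± 0.32 (3.77 with 16 added; adjusted p = 3.35e-10). The zinc finger gene zic2b rose by 5.98 ± 0.41, the LIM homeobox gene lhx5 by 5.49 ± 0.42 and sox11a by 4.74 ± 0.37 (3.72, 2.40 and 2.96 with 16 added). The other, dim probe set of zic2b had a difference of 0.92 ± 0.62 and did not pass. The replication inhibitor geminin, gmnn, which also delays neural differentiation, fell by 2.27 ± 0.45 (9.48, 8.27 and 10.23 to 6.95, 7.36 and 6.88). Also named among the fallers were sox19b, sox21a, irx1a and pbx1a, of which the last 3 had mean levels below 4 at 1 hpf and differences of -0.81, -0.47 and -0.64 with 16 added. Another probe set of pbx1a had a difference of 0.54 ± 0.87 and did not pass.

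Notch signalling passes between neighbouring cells from Delta or Jagged ligands to Notch receptors, and Hairy-related repressors are its targets. Of 27 genes 15 rose and 1 fell, with a median of 1.90 (0.55 with 16 added), while when centred on ribosomal protein probe sets 8 rose and 8 fell, with a median of 0.58. The ligand gene dla rose by 3.54 ± 0.53 (1.08, 2.46 and 1.82 to 5.71, 4.99 and 5.27; 1.52 with 16 added). Hairy-related genes rose by 5.05 ± 0.67 for her9, 4.31 ± 0.37 for hes6, 3.48 ± 0.48 for her8a and 3.44 ± 0.36 for her6 (2.54, 3.34, 1.63 and 2.41 with 16 added). The other, dim probe set of her8a had a difference of -0.33 ± 0.8 and did not pass. The signals of hes6 were 4.46, 3.76 and 3.61 at 1 hpf and 8.27, 7.83 and 8.65 at 7 hpf. The ligand gene jag2b fell by 1.03 ± 0.34, a call that ended without replicate 2 of 1 hpf (0.105) or of 7 hpf (0.0938).

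Many of the largest rises belonged to genes of the outer layer and of the yolk layer. The enveloping layer is a thin epithelium that covers the embryo and expresses keratins early. Of 51 genes of this layer and of the epidermis, 30 rose and 3 fell, with a median of 2.92 (0.91 with 16 added), while 27 rose and 12 fell when centred on ribosomal protein probe sets, with a median of 1.6. Keratin gene krt4 went from 2.47, 2.73 and 3.17 to 11.03, 10.63 and 11.07, a rise of 8.12 ± 0.32 (6.40 with 16 added; adjusted p = 4.41e-13). Its partner krt18a.1 went from 1.46, -0.83 and -1.77 to 10.56, 10.24 and 10.85 (10.93 ± 0.61 higher, 6.46 with 16 added). Every later array was near the top of the scale and every earlier one near its floor.

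With 16 added to the signals, krt8, krt97, krt5 and lye, a gene of the embryonic epithelium, rose by 6.50, 5.66, 5.62 and 6.08. The chaperone gene hspb1 rose from 3.22, 4.24 and 3.57 to 10.55, 10.85 and 11.20 (7.19 ± 0.32; 6.01 with 16 added). Claudin gene cldnb rose by 6.06 ± 0.53 (2.73 with 16 added). In the other direction, the epithelial adhesion gene epcam fell by 2.33 ± 0.30 (10.25, 10.44 and 10.76 to 8.68, 7.96 and 7.82), the protease inhibitor gene spint1b by 2.40 ± 0.33 and the myosin gene myh9a by 3.06 ± 0.69 (-0.57 with 16 added). Another, dim probe set of epcam had a difference of 0.89 ± 0.83. Probe sets of spint1b with differences of -0.87 ± 0.66 and -1.38 ± 0.65 did not pass, while a further one fell by 2.65 ± 0.52.

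The yolk syncytial layer feeds the embryo from the yolk with lipoproteins. Of 39 genes of this layer and of plasma proteins, 23 rose and 4 fell, with a median of 2.39 (0.80 with 16 added), while 17 rose and 8 fell when centred on ribosomal protein probe sets, with a median of 1.08. Apolipoprotein gene apoeb had signals of 2.69, 2.62 and 2.82 at 1 hpf and 11.09, 11.28 and 11.65 at 7 hpf, a rise of 8.63 ± 0.41 (6.85 with 16 added; adjusted p = 6.49e-12). Lipid carriers apoc1, apoa1a and apobb.1 rose by 7.50 ± 0.49, 6.25 ± 0.62 and 8.16 ± 0.89 (5.03, 3.81 and 3.17 with 16 added). The yolk layer regulators mxtx2 and hnf4a, which mark it, rose by 2.09 ± 0.60 and 3.19 ± 0.83 (0.80 and 1.19 with 16 added). At 7 hpf the group's median was 3.81, 3.57 and 5.38 on the 3 arrays, so replicate 3 was the highest, as it was for apobb.1 (6.52, 6.25 and 8.31). Besides lipg, the genes fabp3, apom and fgg fell, by 1.33 ± 0.27, 1.84 ± 0.60 and 1.96 ± 0.65 (-1.27, -0.66 and -0.24 with 16 added). Calls of apom and fgg ended without 1 hpf replicate 3 (0.054 and 0.0801) or 7 hpf replicate 3 (0.0563 and 0.0693), that of apom also without 1 hpf replicate 1 (0.0507), and that of fgg also without 7 hpf replicate 1 (0.0563) and with 16 added (0.237). The number of the group that fell was 2 in place of 4 without 1 hpf replicate 3 or 7 hpf replicate 3.

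Of the genes named here the largest rise was that of wdr90, a gene of the WD-repeat family. The gene has 1 probe set, of the _x_at type, and binding of other transcripts to it was not tested. Its signals were 1.56, -1.30 and -1.21 at 1 hpf and 11.02, 11.32 and 11.01 at 7 hpf, a rise of 11.43 ± 0.52 (7.02 with 16 added; adjusted p = 3.43e-12). Cyclin D1, ccnd1, which drives entry into the cell cycle and is a reported miR-34 target in mammals, went from 2.57, 2.58 and 2.23 to 9.89, 9.28 and 9.72 (7.16 ± 0.52 higher, 5.23 with 16 added). The actin-binding thymosin gene tmsb1 rose by 7.59 ± 0.38 (4.93 with 16 added). The 15 largest rises were completed by si:ch211-152c2.3, zgc:193505 and si:ch211-222l21.1.

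**Figure D3:**
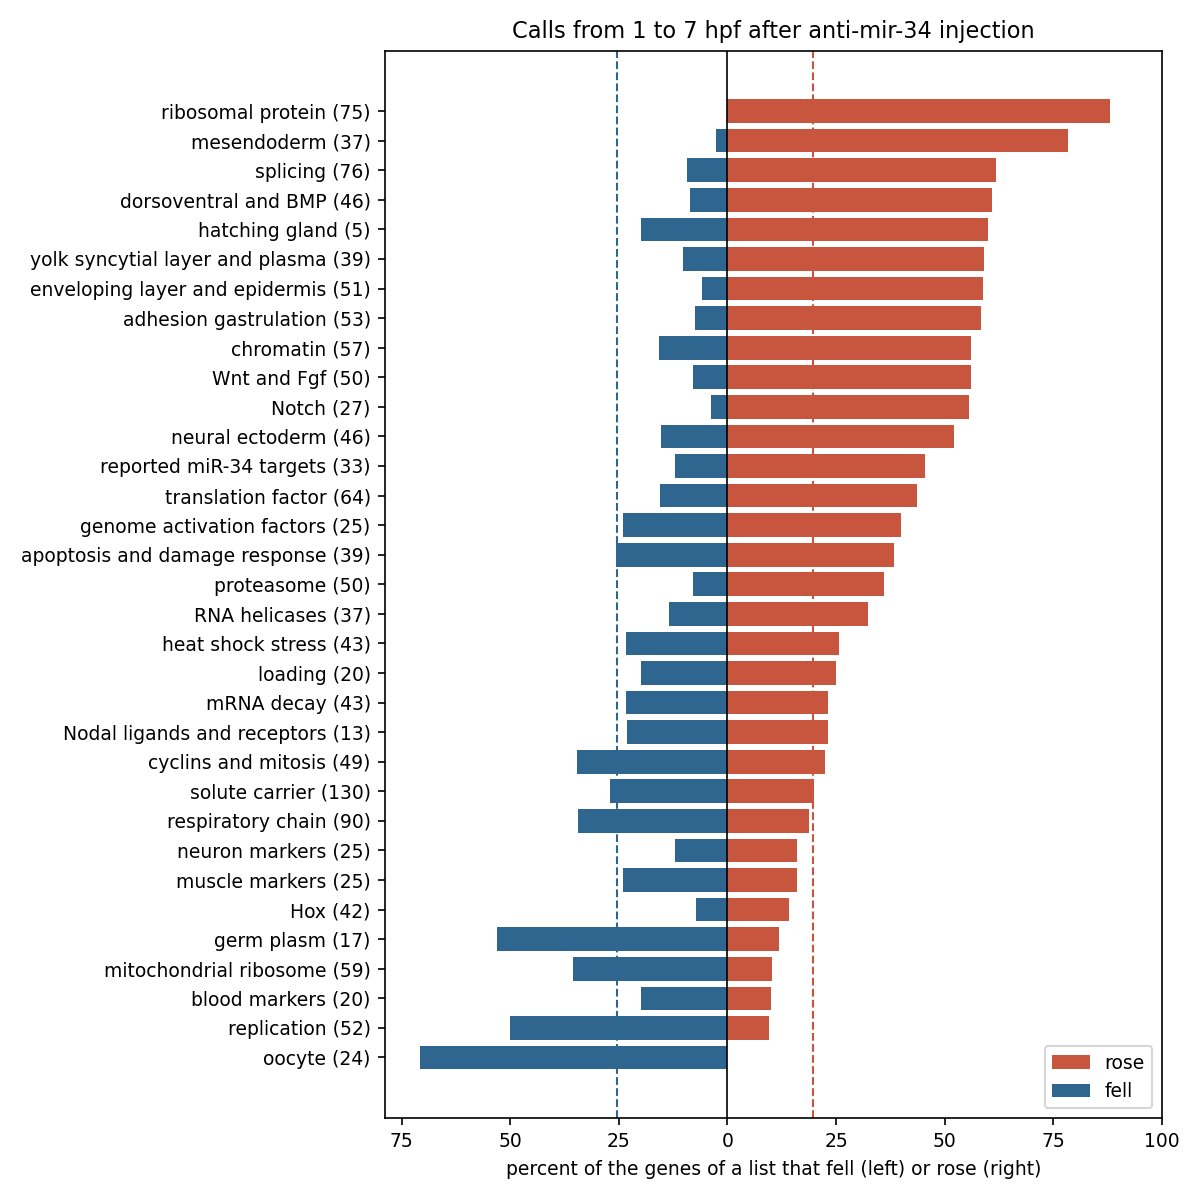
Percent of the measured genes of each of 33 groups (number in brackets) that rose (red, right) or fell (blue, left) from 1 to 7 hpf after anti-mir-34 injection, with dashed lines at the shares over all 8796 genes, 19.8% up and 25.4% down. On this deposited scale 66 of 75 ribosomal protein genes rose and 17 of 24 oocyte genes fell; centred on ribosomal protein probe sets, the medians of the ribosomal, splicing, chromatin, translation, helicase, proteasome, apoptosis, stress, hatching gland, loading and reported miR-34 target groups turn negative.

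Cleavage divisions run on maternal stores of cell cycle proteins and RNA. Of 49 cyclin and mitosis genes 17 fell and 11 rose, with a median of -0.28 beside -0.33 over all genes. The inhibitor of the anaphase complex fbxo5 (emi1) had signals of 10.64, 10.47 and 10.42 at 1 hpf and 7.80, 7.88 and 7.57 at 7 hpf, and it fell by 2.76 ± 0.24 (adjusted p = 3.46e-08). The named fallers besides it were the mitotic kinase genes aurka, by 2.28 ± 0.22, and plk1, by 1.6 ± 0.23, and the checkpoint genes mad2l1, by 2.02 ± 0.20, and chek2, by 2.55 ± 0.30. The mitotic kinase gene cdk1 was among the 11 that rose. Besides ccnd1, the cycle inhibitor gene cdkn1ca rose by 3.66 ± 0.36 (4.31, 3.27 and 3.03 to 7.18, 6.91 and 7.51; 2.54 with 16 added), e2f4 by 2.24 ± 0.30 and ccnf by 2.6 ± 0.32. The other probe set of e2f4 had a difference of 0.38 ± 0.43 and did not pass.

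DNA replication genes fell in 26 of 52 cases and rose in 5, with a median of -0.64. The gene cdc45, for a part of the replicative helicase, fell by 2.78 ± 0.23 (8.19, 8.18 and 7.81 to 5.45, 5.14 and 5.26; adjusted p = 1.77e-08), and gins2 of the same complex by 3.33 ± 0.39. The histone chaperone nasp and the kinase cdc7 fell by 2.67 ± 0.38 and 2.14 ± 0.29. Of the replicative helicase, mcm3 rose by 6.10 ± 0.57 (2.04, 2.75 and 0.79 to 7.88, 7.75 and 8.26; 3.72 with 16 added) and mcm7 by 2.12 ± 0.31 (5.56, 7.02 and 6.56 to 8.76, 8.42 and 8.33). The maintenance DNA methyltransferase gene dnmt1 fell by 2.00 ± 0.46, with 1 hpf replicate 1 at 7.71 far below the others of its age (10.02 and 10.10).

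Genes of apoptosis and of the damage response rose in 15 of 39 cases and fell in 10, with a median of 0.54 that was -0.78 when centred on ribosomal protein probe sets, when 12 rose and 21 fell. The stress-responsive gene sesn3 had signals of 2.82, 3.58 and 3.07 at 1 hpf and 8.80, 8.71 and 9.15 at 7 hpf, a rise of 5.73 ± 0.37 (4.29 with 16 added; adjusted p = 3.82e-10). The cell adhesion and apoptosis gene perp rose by 6.72 ± 0.63 (3.97 with 16 added), and the damage-response gene gadd45ba rose by 3.48 ± 0.36 (1.82). Named fallers were the survival genes bcl2l1, by 1.74 ± 0.31, mcl1b, by 1.33 ± 0.25, and mcl1a, by 1.09 ± 0.27. The others named were the initiator caspase gene casp9, by 1.25 ± 0.32, and fadd, by 2.87 ± 0.71 (-0.32 with 16 added). Without 1 hpf replicate 1 the number of the group that fell was 6 in place of 10.

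Of 43 stress genes 11 rose and 10 fell, close to the 19.8% and 25.4% of all genes. Their median of 0.08 was -0.01 after quantile normalization and -1.24 when centred on ribosomal protein probe sets. The endoplasmic reticulum chaperone gene hspa5 (BiP) went from 9.89, 10.09 and 9.87 to 6.71, 7.07 and 6.60 (-3.15 ± 0.27, adjusted p = 2.68e-08), and hsp90b1, of the same compartment, fell by 2.35 ± 0.46. The antioxidant enzyme genes sod1 and prdx2 fell by 2.02 ± 0.32 and 1.72 ± 0.30. The collagen chaperone gene serpinh1b rose from -0.55, -2.6 and -1.77 to 7.24, 7.38 and 7.90 (9.14 ± 0.62; 3.59 with 16 added), jun rose by 7.36 ± 0.43 (2.28) and atf4a by 4.02 ± 0.39 (3.29).

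Genes reported as miR-34 targets, mostly in mammals, rose in 15 of 33 cases and fell in 4, with a median of 0.61 that was -0.71 when centred on ribosomal protein probe sets, when 8 rose and 13 fell. Of these genes 22 also belong to another group described here. The strongest calls upward beside ccnd1 were sox2, both given above, the Myc gene mycn (4.54 ± 0.41 higher; 2.7, 2.34 and 2.47 to 6.98, 6.70 and 7.45; 2.77 with 16 added), yy1a (2.44 ± 0.35) and the mesoderm repressor snai1a (2.22 ± 0.26). The 4 that fell were e2f5 (-3.44 ± 0.52; 5.82, 5.96 and 5.50 to 2.2, 2.2 and 2.55; -1.74 with 16 added), myca, mycb and map2k1 (-1.18 ± 0.31; -0.55 with 16 added). A dimmer probe set of e2f5 had a difference of -1.13 ± 0.77. In mock embryos 11 of the 33 genes rose and 4 fell over the same ages, beside 14.3% and 13.8% of all genes. In limma's test of a different step after the injections 0 of the 33 passed. At an unadjusted p below 0.05 in it there were 10 of the 33, beside 11.8% of all probe sets.

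Cell adhesion and gastrulation movement genes rose in 31 of 53 cases and fell in 4, with a median of 1.5 (0.77 with 16 added). Centred on ribosomal protein probe sets, 20 rose and 15 fell, with a median of 0.19. The laminin gene lamb1a of the basement membrane rose by 8.83 ± 0.79 (-2.15, -0.88 and 2.03 to 8.56, 8.01 and 8.92; 4.43 with 16 added), and aplnra, a receptor that guides mesendoderm cells, by 4.63 ± 0.38 (2.3 with 16 added). Claudin gene cldng was measured by 4 probe sets that disagree: its brightest rose by 6.28 ± 0.31 (2.52 ± 0.50 to 8.80 ± 0.28; 4.40 with 16 added), as did the others at 5.83 ± 0.71 and 5.17 ± 0.28, whereas the last fell by 5.41 ± 0.83 (10.92 to 5.51). Among the genes that fell, vangl2 of planar cell polarity, which fell by 1.48 ± 0.57 (-0.8 with 16 added), lost its call without 1 hpf replicate 1 (0.23) or 7 hpf replicate 1 (0.147) or 3 (0.123), and the number of the group that fell was 2 without 7 hpf replicate 3.

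Of 57 chromatin genes 32 rose and 9 fell, with a median of 0.87 that was -0.45 when centred on ribosomal protein probe sets, when 10 rose and 26 fell. The high mobility group gene hmga1a, which opens chromatin, had signals of 8.78, 8.73 and 9.06 at 1 hpf and 11.20, 11.39 and 11.16 at 7 hpf, a rise of 2.39 ± 0.21 (adjusted p = 3.38e-08), although 1 of its 4 probe sets had a difference of -0.32 ± 0.42. The nucleosome-binding genes hmgn2 and hmgn3 rose by 3.14 ± 0.34 and 4.72 ± 0.45 (2.75 and 2.6 with 16 added), the histone chaperone gene anp32a by 2.67 ± 0.23, and the new-methylation enzyme gene dnmt3ba by 2.77 ± 0.30. The histone H3 lysine methyltransferase gene suv39h1a fell by 2.57 ± 0.58 (-1.05 with 16 added) and the methyl-CpG binding gene mbd2 by 1.87 ± 0.35.

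Of 76 splicing genes 47 rose and 7 fell, with a median of 0.97 that was -0.35 under the same centring, when 14 rose and 27 fell. The RNA-binding gene hnrnpa0b had signals of 7.86, 8.15 and 7.99 at 1 hpf and 10.71, 10.75 and 10.55 at 7 hpf, a rise of 2.67 ± 0.16 (adjusted p = 1.41e-10). Its other probe sets rose by 3.08 ± 0.26 and 3.86 ± 0.49, except a dim one at 0.42 ± 1.01. Its relative hnrnpa0a rose by 4.88 ± 0.29, and the serine-arginine splicing factor genes srsf1a, srsf5a and srsf3b by 3.68 ± 0.27, 3.31 ± 0.30 and 2.91 ± 0.25. Without 7 hpf replicate 3 the number that fell was 4 in place of 7. Of 37 RNA helicase genes 12 rose and 5 fell (3 without 7 hpf replicate 2), with a median of 0.37 that was -0.95 when centred, among them ddx61, which rose by 2.28 ± 0.29, and the mitochondrial helicase gene ddx28, which fell by 2.08 ± 0.32. A further probe set of ddx61 rose by 2.27 ± 0.4, while another had a difference of 0.45 ± 0.71 and did not pass.

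Ribosomal protein genes rose in 66 of 75 cases, with 0 that fell and a median of 1.16. None fell at an unadjusted p below 0.05 in limma. That median was 0.64 under cyclic loess, when 39 rose, and, since the centring takes these genes as its zero, -0.15 when centred on ribosomal protein probe sets. The list's median level was 8.96, 8.91 and 8.54 at 1 hpf and 10.09, 10.02 and 10.25 at 7 hpf. For rpl27 the signals were 8.52, 7.49 and 7.71 against 10.16, 9.97 and 10.56 (2.33 ± 0.27 higher, adjusted p = 1.48e-06), and rps16 rose by 1.86 ± 0.20 (8.48, 8.18 and 8.34 to 10.45, 9.79 and 10.34). Translation factor genes rose in 28 of 64 cases and fell in 10, with a median of 0.38 (-0.94 when centred). Among them were eif4a2, higher by 2.54 ± 0.38, and the stress kinase gene eif2ak3, which fell by 2.47 ± 0.48 (-1.43 with 16 added).

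Of 59 mitochondrial ribosome genes 21 fell and 6 rose, with a median of -0.54. Without 1 hpf replicate 1 the median was -0.22 and 13 fell, and 3 rose without 7 hpf replicate 1. Of 90 respiratory chain genes 31 fell and 17 rose, with a median of -0.35 close to the -0.33 of all genes, while the number that rose was 10 without 1 hpf replicate 3, 11 without 7 hpf replicate 1 and 10 without 7 hpf replicate 3. The copper chaperone gene of cytochrome oxidase, cox17, had signals of 8.99, 9.45 and 9.44 at 1 hpf and 6.58, 6.77 and 6.14 at 7 hpf, and it fell by 2.80 ± 0.26 (adjusted p = 8.24e-08). The ATP synthase gene atp5f1c fell by 2.02 ± 0.29 and mrpl48 by 2.09 ± 0.28, whereas atp5if1a, which codes for the inhibitor of ATP synthase, rose by 2.13 ± 0.26 and mrpl2 by 2.13 ± 0.27.

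Proteasome genes rose in 18 of 50 cases and fell in 4, with a median of 0.29 that was -1.03 when centred on ribosomal protein probe sets. The number that rose was 9 without 1 hpf replicate 2, 11 without 7 hpf replicate 1 and 8 without 7 hpf replicate 3, and the number that fell was 2 without the last. The catalytic subunit gene psmb6 rose by 1.86 ± 0.33 (6.18, 5.24 and 5.55 to 7.46, 7.08 and 8.01) and psmd10 fell by 1.58 ± 0.33. Of 130 solute carrier genes 26 rose and 35 fell, close to the shares over all genes, with a median of -0.34. Among them were slc3a2b, the heavy chain of amino acid transporters, higher by 5.15 ± 0.48 (3.71 with 16 added), and the nucleoside transporter gene slc29a2, which fell by 3.63 ± 0.61 (-1.70 with 16 added). Of 42 Hox genes 6 rose and 3 fell, and the median of -0.14 was 0.16 under cyclic loess. In that group hoxc8a rose by 5.6 ± 0.69 (-0.22, -1.16 and 0.91 to 4.91, 5.11 and 6.31; 1.83 with 16 added) on 1 of 3 probe sets, and 3 genes rose without 7 hpf replicate 3.

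Genes of cell types that an embryo of 7 hpf should hold little of were near the floor of the scale. The median of 25 muscle genes was between 1.75 and 2.21 at 1 hpf and between 1.15 and 1.99 at 7 hpf, and its median difference of -0.04 was 0.17 under cyclic loess. That of 25 neuronal genes was between 2.12 and 2.57 and between 1.49 and 2.22, and that of 20 blood genes between 1.06 and 1.99 and between 1.05 and 1.29. In these lists 4, 4 and 2 genes rose and 6, 3 and 4 fell. With 16 added to the signals 3 muscle genes rose and 1 fell, and 1 neuronal gene rose and 2 fell. The blood genes that fell numbered 0 without 1 hpf replicate 1, 2 without 1 hpf replicate 3, 1 without 7 hpf replicate 1 and 1 without 7 hpf replicate 3.

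Some members of these lists were exceptions and rose, and whole embryos do not show which cells held their transcripts. The myogenic factor myf5 rose by 4.44 ± 0.78 (1.09 with 16 added), the actin-bundling gene lcp1 by 8.16 ± 0.67 (3.42) and the carbonic anhydrase gene cahz by 5.64 ± 0.63 (2.28). Of 5 hatching gland genes 3 rose and 1 fell, with a median of 1.11 that was -0.21 when centred on ribosomal protein probe sets, with 0 that fell without 1 hpf replicate 2, and klf17, the factor of the prechordal cells that form the gland, rose by 4.23 ± 0.73 (1.19, 2.40 and 2.69 to 6.75, 5.56 and 6.65; 2.23 with 16 added).

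Genes often used as loading controls were called about as often as all genes. Of 20 such genes 5 rose and 4 fell, beside 19.8% and 25.4% over all genes. Their median of 0.02 was -0.24 under cyclic loess and -1.30 when centred on ribosomal protein probe sets. The actin gene actb1 rose by 1.47 ± 0.25 (10.06, 9.33 and 8.90 to 10.70, 10.96 and 11.04), a difference of 0.15 when centred on ribosomal protein probe sets. The glycolysis gene gapdh fell by 1.17 ± 0.30 (10.55, 10.78 and 10.24 to 8.73, 10.28 and 9.05; adjusted p = 0.00377), and its ages overlapped because replicate 2 of 7 hpf was high. The number of these genes that rose was 3 without 1 hpf replicate 1 or 7 hpf replicate 3.

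**Figure D4:**
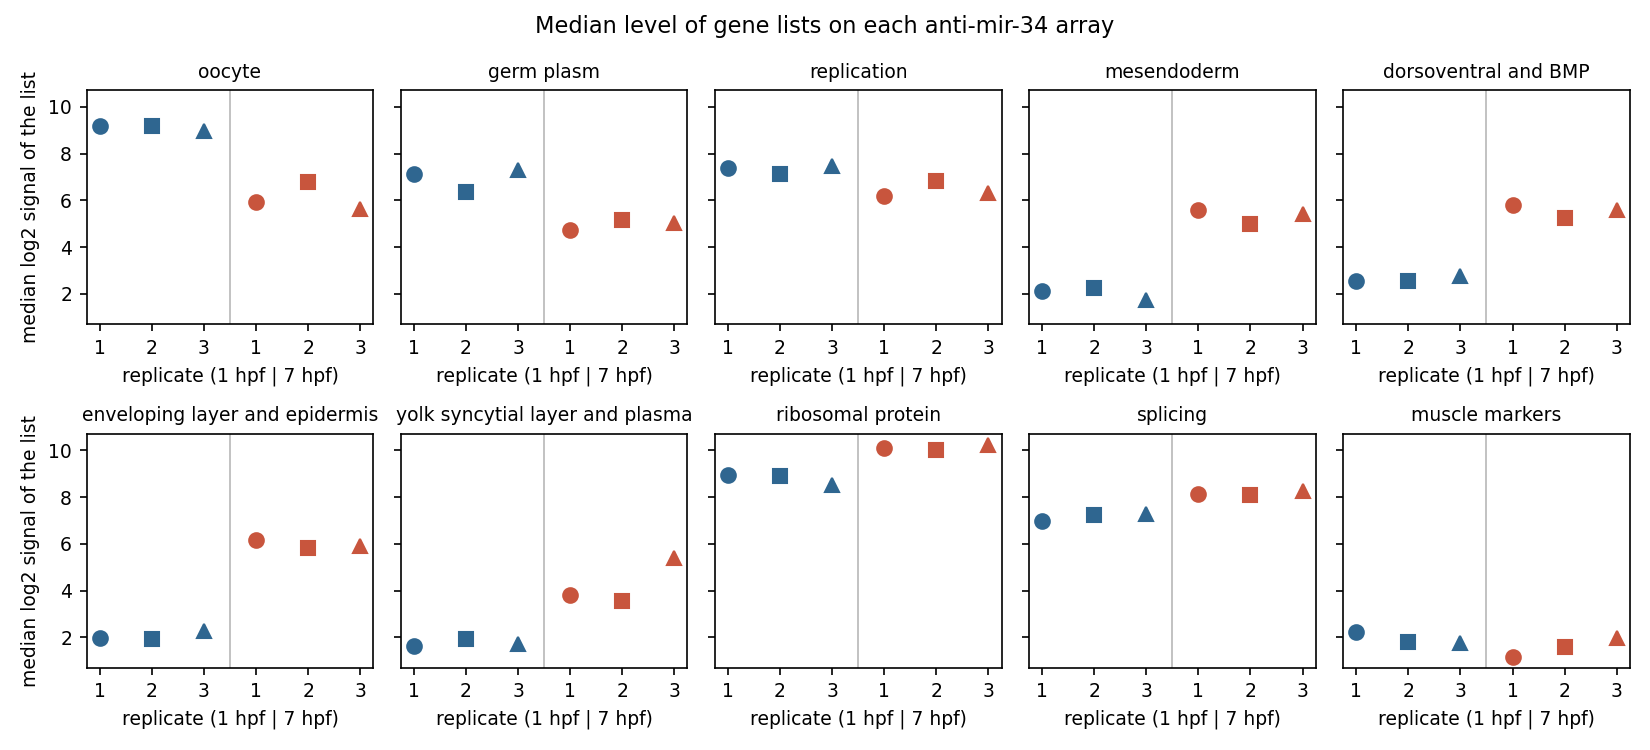
Median deposited log2 signal of 10 gene groups on each anti-mir-34 array, with 1 hpf (blue) left and 7 hpf (red) right of the line in each panel and replicates 1 to 3 as circle, square and triangle. Oocyte genes go from between 8.97 and 9.17 to between 5.62 and 6.78, with replicate 2 the highest at 7 hpf; ribosomal and splicing groups rise on this scale but not when arrays are centred on ribosomal protein probe sets.

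Some related genes moved in opposite directions. In 13 pairs, put together with their values in view and so given as a description, the first gene is maternal. In 6 of them the first fell and the second rose: sox19b and sox19a, dnmt1 and dnmt3ba, cldnd and cldne, zfp36l2 and zfp36l1b, gdf3 and ndr2, and cth1 and zfp36l1a. In cldne, a claudin of the enveloping layer, the signals were -1.30, -1.6 and 0.82 at 1 hpf and 4.14, 3.94 and 4.45 at 7 hpf (1.02 higher with 16 added). Both genes fell in 5 pairs, though the first fell more in each, also with 16 added: tbpl2 by 4.58 and tbp by 1.34, slbp2 by 4.55 and slbp by 1.13, birc5b by 4.30 and birc5a by 1.36, zar1l by 4.35 and zar1 by 1.37, and kpna7 by 4.77 and kpna2 by 2.02. The call of tbp ended without 1 hpf replicate 3 (0.0697) or 7 hpf replicate 3 (0.051). The other 2 pairs were ccna1 with ccna2, where neither passed, and mcm6l with mcm6, where the first fell.

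Mock embryos, measured on other arrays, went through the same step. There 3722 probe sets passed (24.0%), 2103 up (13.6%) and 1619 down (10.4%), and 14.3% and 13.8% of genes rose and fell. Across the 15502 probe sets the steps after the 2 injections had a Pearson r of 0.81 and a Spearman rho of 0.71, where probe sets are not independent replicates and the arrays share one normalization. Of the 3045 probe sets called after both, 3033 had the same direction, which is 49.6% of the anti-mir-34 calls and 81.5% of the mock calls. A further 3064 passed only after anti-mir-34 and 677 only after mock, and a call in just one of them does not show a difference. The median size of the step was 1.01 after anti-mir-34 and 0.76 after mock. The median SD over the 3 arrays of 7 hpf was 0.46 after anti-mir-34 and 0.52 after mock, and over those of 1 hpf 0.50 and 0.43. Many named risers spread more at 7 hpf after mock, as did cdh2 (SD 0.23 after anti-mir-34 and 1.0 after mock) and krt4 (0.24 and 0.73). Some named fallers spread less after mock, as did birc5b (0.94 and 0.15). In the main fit, which pools the spread over all groups, limma's SE was the same for the steps after both injections. It was 0.32 for krt4, 0.32 for cdh2 and 0.67 for birc5b. Why fewer probe sets passed after mock was not tested.

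The groups ran side by side. Of 24 oocyte genes 17 fell after anti-mir-34 and 9 after mock, with medians of -2.42 and -1.82. Of 37 mesendoderm genes 29 and 25 rose, with medians of 3.59 and 3.11, and of 51 outer layer genes 30 and 25 rose, with medians of 2.92 and 1.27. Of 75 ribosomal protein genes 66 and 59 rose on the deposited scale, and of 52 replication genes 26 and 19 fell. These pairs of counts were not tested against each other as groups. Gene by gene, limma's test of a different step passed for 1 replication gene, rpa3, with a lower step after anti-mir-34, and for 0 genes of the oocyte, mesendoderm, outer layer and ribosomal groups. At an unadjusted p below 0.05 in it there were 10 of 52 replication genes, beside 11.8% of all probe sets. For the oocyte, mesendoderm, outer layer and ribosomal groups it was 1 of 24, 8 of 37, 12 of 51 and 3 of 75.

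That test asked whether the step from 1 to 7 hpf differed between the injections. It passed for 42 probe sets, 24 with a higher step after anti-mir-34 (0.155% of 15502) and 18 with a lower one (0.116%), while 1834 (11.8%) had an unadjusted p below 0.05. In 38 of the 42 the injections differed more at 1 hpf than at 7 hpf, with a median difference in size of 1.59 against 0.56. Most of these probe sets thus began apart and ended closer together.

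The smallest adjusted p was that of malsu1, a factor of mitochondrial ribosome assembly. Its signals were 0.01, 1.09 and 0.55 at 1 hpf and 4.64, 4.32 and 4.84 at 7 hpf after anti-mir-34, and 3.72, 3.67 and 3.40 against 3.74, 3.48 and 4.45 after mock. Only the anti-mir-34 arrays of 1 hpf were low, and the steps differed by 3.76 ± 0.50 (adjusted p = 0.00421; 1.06 with 16 added, adjusted p = 0.0689). The cap-binding gene eif4e3 moved in opposite directions: it fell after anti-mir-34 (7.52, 7.58 and 7.94 to 6.70, 6.95 and 6.01) and rose after mock (4.69, 5.14 and 5.82 to 6.84, 7.27 and 7.00), with a difference of -2.94 ± 0.47 (adjusted p = 0.018). The fall on its own lost its call without anti-mir-34 7 hpf replicate 3 (0.0755), and another probe set of the gene did not pass.

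Cell cycle genes were among those with a higher step. The mitotic kinase gene cdk1 rose after anti-mir-34 from 5.36, 5.67 and 5.66 to 6.96, 6.94 and 7.37, and had 7.31, 6.80 and 7.32 against 6.96, 6.23 and 7.11 after mock, a difference in step of 1.90 ± 0.35 (adjusted p = 0.0267). The kinetochore motor gene cenpe rose by 1.45 ± 0.29 after anti-mir-34 and fell by 0.96 after mock. The nucleolar helicase gene ddx21 rose by 1.96 ± 0.21 after anti-mir-34, from 6.18 ± 0.16 to 8.13 ± 0.10, and stood at 8.15 ± 0.23 and 8.37 ± 0.36 after mock. The Polycomb gene bmi1a fell by 2.32 ± 0.30 after anti-mir-34 and had a difference of -0.06 after mock.

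The count of different steps depended on single arrays and on the fit. It was 0 when only the 12 arrays of 1 and 7 hpf were fitted, where 0 of the 15 genes named for this test passed and 1665 probe sets had an unadjusted p below 0.05 in limma. It was 5 without an intensity trend and 81 with 16 added. It was 211 without anti-mir-34 1 hpf replicate 2 and 177 without mock 7 hpf replicate 3. It was 1 without anti-mir-34 7 hpf replicate 1 or mock 7 hpf replicate 2, and 3 without anti-mir-34 7 hpf replicate 3 or mock 1 hpf replicate 1. It was 19 without mock 1 hpf replicate 3 and 11 without mock 7 hpf replicate 1.

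**Figure D5:**
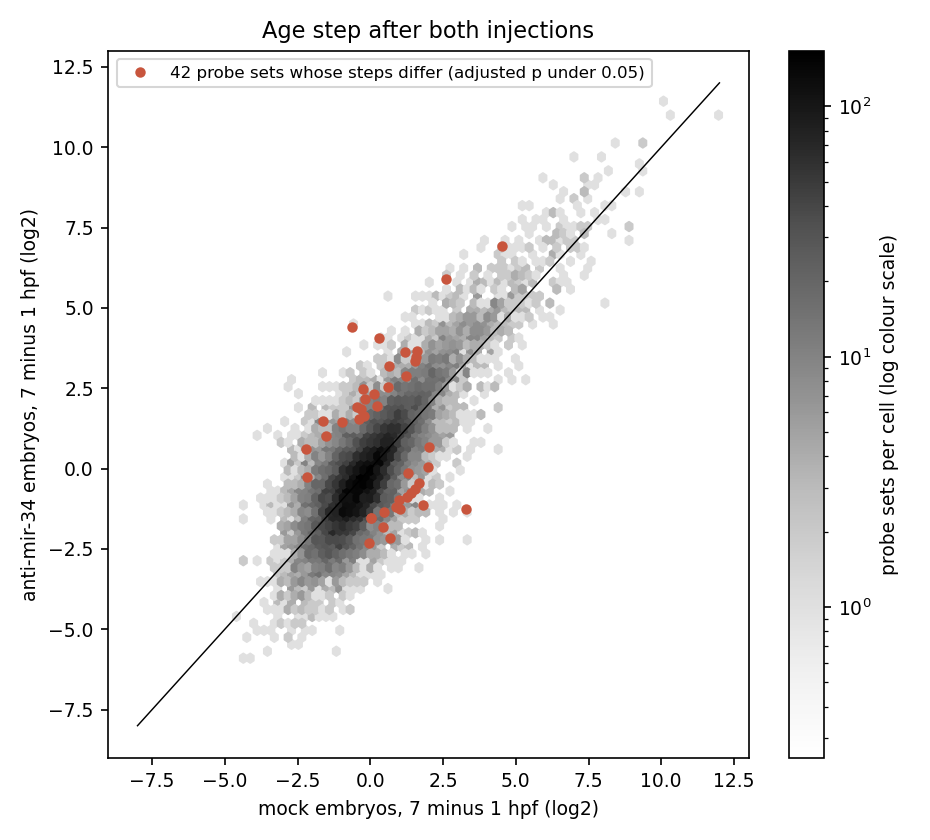
Difference of 7 minus 1 hpf (log2) after anti-mir-34 injection (vertical) against that after mock injection (horizontal) for 15502 probe sets, as hexagonal cells shaded by number on a log colour scale, with the line of equal steps. The 42 red points are probe sets whose steps differed at an adjusted p under 0.05, 24 of them with a higher step after anti-mir-34.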

How the data were processed

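Total RNA of whole wild-type embryos was labelled with biotin from 6 ug and hybridised to 1-colour Affymetrix zebrafish arrays, per the labels' protocols. The values are log2 signals deposited by the authors in 1 table. GCOS is named in the submitters' processing notes, whereas the sources used here do not state the probe summary or normalization. The table gives no detection calls, and the number of arrays limits the precision. Groups and replicates were taken from the labels.

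Of 15617 probe sets 115 controls were left out, and 131 values were missing over all arrays. Of the other 15502, 10795 carried 1 gene symbol, 135 several and 4572 none in the platform annotation, and 10711 were matched to RefSeq genes (GRCz12tu) by Entrez number, which updated 1 symbol. A gene was represented by its probe set of highest mean over the 18 arrays.

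One limma fit (limma 3.58.1, R 4.3.3) with a mean per group and an intensity trend was made over all 18 arrays (12 residual degrees of freedom), with Benjamini-Hochberg adjustment and a threshold of 0.05. The procedure was tested on simulated data: of 200 probe sets changed by 3 log2 units among 15388, 146 were recovered with 18 false calls. Those 18 were a larger share of the simulated calls than the 0.05 that the threshold is meant to hold. The simulation changed a far smaller share of probe sets than was called in the data (39.4%). The share of false calls in the data cannot be read from it. Named genes are the 15 largest rises and falls with 16 added to the signals, among those called with and without it and not overlapping, up to 5 genes of smallest adjusted p per group and direction, and 15 genes of the difference of steps. The comparison and gene lists were chosen with earlier results of these data known. Alternatives covered the arrays fitted, the trend, added signal, a filter on the mean, normalization, weights, a replicate block, a 2-fold test and each array left out. A planned search of promoter and microRNA sequences was not run.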

Additional observations from a re-analysis of the deposited data

Results flagged for a closer look

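The steps from 1 to 7 hpf differed between the injections, at limma's adjusted p under 0.05, for the 15 genes named for this test. The difference of the anti-mir-34 step minus the mock step was 3.76 ± 0.50 for malsu1, 2.82 ± 0.49 for tiprl, 2.41 ± 0.42 for cenpe, 2.37 ± 0.44 for serpine2 and 1.94 ± 0.37 for ghitm. It was 1.90 ± 0.35 for cdk1, 1.86 ± 0.35 for cdk2ap2, 1.83 ± 0.34 for sumo2b and 1.73 ± 0.30 for ddx21. Lower steps after anti-mir-34 had differences of -2.94 ± 0.47 for eif4e3, -2.26 ± 0.42 for bmi1a, -2.18 ± 0.43 for rcor1, -2.14 ± 0.36 for igbp1, -1.97 ± 0.33 for ptgr1.1 and -1.82 ± 0.33 for emc6. After anti-mir-34 the main probe set of igbp1 fell, while its other one had a difference of 1.03 ± 0.41 and did not pass (limma's adjusted p = 0.0501). Of 17 alternatives malsu1 passed in 15, the most, and rcor1 in 6, the fewest, and 0 of the 15 genes passed when only the 12 arrays of 1 and 7 hpf were fitted.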

How the results depend on the processing

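Of 286 named genes 230 were tested under all 18 alternatives, and 143 of these kept their direction and call under each. The other 56 had a mean below 4 and no value under that filter, and 24 of them kept both under the alternatives that remain. Of the 286, 247 kept the call without each single array, and 0 changed direction when an array was left out. Under at least 1 of the 18 alternatives 17 changed direction. The 6109 probe sets called from 1 to 7 hpf became 3906 (1888 lower) among probe sets with a mean of 4 or more, 2143 (1349 higher, 794 lower) when a change of at least 2-fold was tested, and 9999 (1234 higher, 8765 lower) when centred on ribosomal protein probe sets. Leaving out 1 array gave 4932 to 6013 calls, 2517 to 2909 higher and 2415 to 3104 lower. The 42 differences of steps became 0 (0 higher, 0 lower) with 12 arrays, 5 (3 and 2) without the trend, and 81 with 16 added (49 lower). Leaving out 1 array gave 1 to 211, with 1 to 164 higher and 0 to 104 lower. Same-numbered samples of 1 and 7 hpf had deviations correlated at -0.042, -0.018 and 0.014 after anti-mir-34, so no shared effect of the number was seen. These values cannot show whether such samples came from 1 clutch. With the replicate number as a block 5949 probe sets passed (2955 higher, 2994 lower), and 1 difference of steps (1 higher, 0 lower). Centring on ribosomal protein probe sets turned celf1 to -0.55, top1a to -0.15, prim1 to -0.51, rpl13a to -0.21, ywhaz to -0.05, rps18 to -0.78, eef1a1l1 to -0.82, actc1b to -0.11 and agr2 to -0.21. It turned mrpl20 to -0.19, mrpl4 to -0.36, mrpl38 to -0.42, cox6b2 to -0.05, psmb7 to -0.23, psmg1 to -0.23, psmd1 to -0.28 and ddx46 to -0.02. Cyclic loess turned rps18 to -0.04 and eef1a1l1 to -0.21. The causes were not tested. Without detection calls, values near the floor limit the folds of 1604 risers that started below 3.5.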
